A study of Mus musculus with 32 samples.

Results

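Actin and the small proteins that bind its monomers were followed in the soma and the dendrites of single mouse hippocampal neurons. The set was a fixed list of 9 genes, found by symbol: the cytoplasmic actins Actb and Actg1, the ADF/cofilins Cfl1, Cfl2 and Dstn, the profilins Pfn1 and Pfn2, and the beta-thymosins Tmsb4x and Tmsb10. All 9 were present among the 44081 genes counted on 3′UTRs and the 23453 genes counted on exons, and all 9 passed the filter that left 10880 genes for the comparison of the compartments. The cells were primary neurons of C57BL/6 mice, taken at embryonic day 18 and grown for 15 days, with no genotype or treatment that differed between groups. Each of 16 neurons gave 1 dendrite library and 1 soma library, the processes of that cell having been cut from its body and each taken up by micropipette. Polyadenylated RNA was amplified by in vitro transcription (aRNA) in 3 rounds for neurons 1 to 4 and in 2 rounds for the other 12. A library reports shares of the RNA that was aspirated, so less RNA in a compartment and a lower concentration there cannot be told apart.

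Actin cycles between free monomers and filaments, and this cycle shapes dendrites and the spines that carry excitatory synapses. Profilins bind monomers and deliver them to growing filament ends, beta-thymosins bind monomers and hold them back from polymerization, and ADF/cofilins sever old filaments and return monomers to the pool. Actb mRNA is also a classic localized mRNA, with an element near the start of its 3′UTR, the zipcode, that is bound by the RNA-binding protein Igf2bp1.

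The zipcode letters of Actb are shown first because they set this mRNA apart from its close relative Actg1. Counting was on 3′UTRs, so only the untranslated parts of the actin genes, which resemble each other far less than their coding parts, had to separate them. On GRCm38 the stretch lies at chr5:142903767-142903795 on the minus strand, in the 3′UTR of Actb and 3 bases after the stop codon. The capitals mark the letters GGACT and ACACCC.

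Actb: GGACTgttactgagctgcgttttACACCC

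GGACT followed by ACACCC after 5 to 20 bases was looked for on the transcribed strand in 20372 mouse 3′UTRs of GENCODE, and 125 of them (0.614%) held it. Among the 9 genes only Actb did. A match of letters is a description of the sequence and not a site. The coding parts of Actb and Actg1 had 1000 of 1128 bases in common (88.7%), and their 3′UTRs of 683 and 700 bases were identical at 50.1% of the positions of the longer. The start of both coding sequences, at chr5:142905657-142905686 and chr11:120348062-120348091, both on the minus strand, is shown as an example of how near the coding parts are, with the 8 differing bases in capitals.

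Actb: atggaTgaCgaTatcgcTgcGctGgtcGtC

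Actg1: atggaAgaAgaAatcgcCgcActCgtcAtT

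The amplification primed on poly(A) tails, so reads lie near the ends of the mRNAs. All 9 genes had the polyadenylation hexamer AATAAA within the last 50 bases of the annotated 3′UTR, as did 62.6% of all 3′UTRs. It is shown in capitals for the beta-thymosins, whose values stood apart from those of the actins: at chrX:167207093-167207118 in Tmsb4x and at chr6:72957348-72957377 in Tmsb10, both on the minus strand and in the 3′UTR.

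Tmsb4x: tatgcaAATAAAgttttaaaacctga

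Tmsb10: gatgaaAATAAAaacacctcgtggcatggt

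Near-identical copies can take reads from a gene, since only uniquely mapped reads were counted. Among annotated transcripts, the end of Actb resembled a stretch of a Lrrc58 transcript (at least 250 bases at 90% identity or more), and the end of Tmsb10 resembled Gm9844 in the same way. Lrrc58 held 22.9% as many reads as Actb over all libraries and Gm9844 2.31% as many as Tmsb10, and how reads were split between them was not tested, so the levels of Actb and Tmsb10 carry that uncertainty. The other 7 genes had no such copy.

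Dendrites had 646521 to 6954420 reads counted on 3′UTRs (n = 16) and somas 925525 to 21169974 (n = 16). Mitochondrially encoded genes took 2.39% to 35.8% of the dendrite reads and 0.277% to 8.12% of the soma reads. Markers of neurons (Map2, Tubb3, Rbfox3, Snap25 and Syn1) summed to 1907 to 9279 CPM in dendrites, where CPM are reads scaled to a common library size, and 2239.8 to 5108 CPM in somas, so the neuronal label held in every library. Markers of GABAergic neurons (Gad1, Gad2 and Slc32a1) summed to 1737 to 11316 CPM in dendrites and 1126 to 19881 CPM in somas. Those of glutamatergic neurons (Slc17a7, Camk2a, Grin1 and Neurod6) summed to 3.97 to 552 CPM in dendrites and 26.9 to 1929 CPM in somas. The 9 genes together took 0.392% to 0.658% of dendrite reads and 0.250% to 1.38% of soma reads. The scaling was by trimmed means (TMM), on 3′UTR reads.

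Both actins were found in every library. Actb, the beta actin of growing and moving cell edges, had 195 CPM at the lowest, 531 at the median and 931 at the highest in dendrites (n = 16). In somas it had 506, 777 and 1408 CPM (n = 16). The soma was higher in 13 of 16 neurons, although the ranges overlapped. Actg1, the gamma actin, had 12.0, 99.2 and 245 CPM in dendrites and 13.7, 109 and 411 CPM in somas. The compartments overlapped, with the soma higher in 10 of 16 neurons. The dendrite values of neurons 1 to 4, the cells amplified in 3 rounds, rested on 9, 11, 30 and 84 reads of Actg1.

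The severing factors ADF/cofilin differed in how regularly they were found in dendrites. Cfl1, the main non-muscle cofilin, had at least 10 reads in all 32 libraries, with 47.7, 267 and 438 CPM in dendrites and 103, 346 and 554 CPM in somas. Cfl2, better known from muscle, had 0, 235 and 643 CPM in dendrites and 192, 305 and 828 CPM in somas. The dendrites of neuron 12 had no Cfl2 read on 3′UTRs but 18 on exons. Dstn, which encodes destrin or ADF, had 0, 45.7 and 185 CPM in dendrites and 6.34, 47.2 and 145 CPM in somas. No 3′UTR read of Dstn was counted in the dendrites of neurons 15 and 16, while their somas held 337 and 392. On exons these dendrites had 0 and 1 reads of Dstn. A count of 0 means that no read was counted on that feature at this depth, and without molecular identifiers the reads do not give the number of molecules lost.

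Of the profilins, the neuronal isoform Pfn2 gave more reads than the widespread isoform Pfn1 in every library. Pfn2 had 3.97, 1601 and 4239.9 CPM in dendrites and 918, 1396 and 4709 CPM in somas. The lowest value, in the dendrites of neuron 15, came from 6 reads, against 12415 in the soma of that cell. Pfn1 had 0, 38.7 and 93.2 CPM in dendrites and 7.10, 27.7 and 98.8 CPM in somas. The ranges of the compartments overlapped for both, and dendrites were higher in 9 of 16 neurons for each.

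Both beta-thymosins were higher in dendrites in at least 12 of 16 neurons. Tmsb4x, the main monomer-sequestering peptide, had 1061, 2505 and 6882 CPM in dendrites and 410.2, 1468 and 6840.3 CPM in somas. Dendrites were higher in 13 of 16 neurons, with the soma higher in neurons 2, 5 and 6. Tmsb10 had 3.27, 34.0 and 91.5 CPM in dendrites and 1.67, 25.1 and 51.6 CPM in somas, with the soma higher in neurons 5, 6, 10 and 13. The ranges of the compartments overlapped for both genes. The library with the most Tmsb4x, the dendrites of neuron 15, was also the one with no read of Dstn or Pfn1 and the fewest of Pfn2, and it had the largest mitochondrial share (35.8%). The part of that share in these values was not tested.

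**Figure D1:**
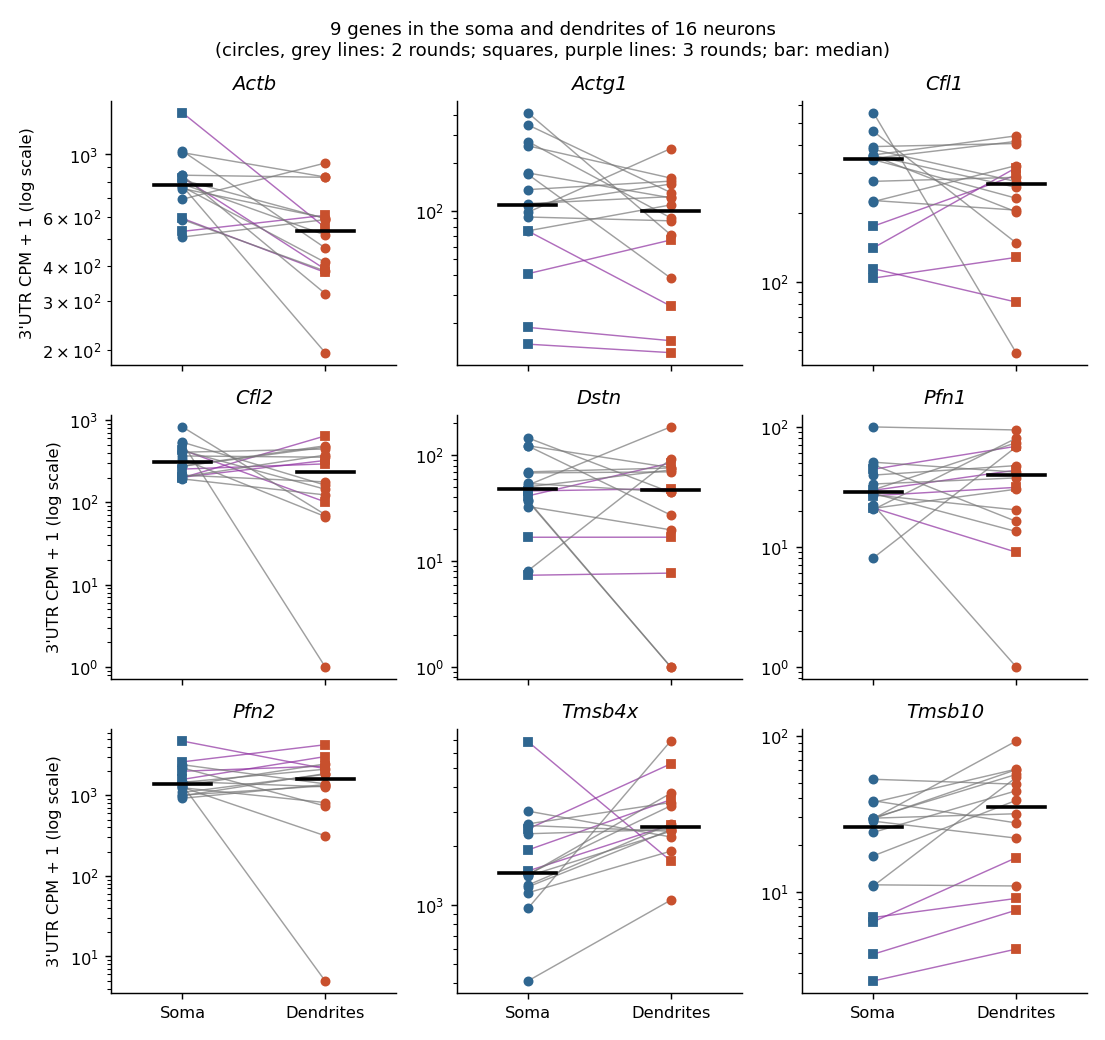
Levels of the 9 genes in somas and dendrites of 16 neurons, as 3′UTR CPM plus 1 on a log axis, with lines joining the compartments of a neuron, circles for 2 rounds and squares for 3 rounds of amplification, and bars for medians. Actb lines mostly fall from soma to dendrites, Tmsb4x and Tmsb10 lines mostly rise, and 1 or 2 dendrite libraries drop to 0 for Cfl2, Dstn and Pfn1.

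To compare the genes with each other, exon reads were divided by the length of all exons of the gene, and scaled to the library total, which gives RPKM. In dendrites the order of the medians was Tmsb4x at 2298 RPKM, Pfn2 at 551, Actb at 293, Cfl1 at 116, Cfl2 at 85.0, Actg1 at 54.1, Pfn1 at 43.8, Dstn at 34.2 and Tmsb10 at 29.2. In somas Actb at 427 came before Pfn2 at 406, Tmsb4x led at 1119.8, and the order of the other genes was the same. The ranges of neighbours in these orders overlapped in every case except Pfn2 and Cfl1 in somas, where the lowest Pfn2 value was 246 and the highest Cfl1 value 217. Because reads gather at the 3′ end, this scale favours short mRNAs such as Tmsb4x.

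The paired comparison of compartments called none of the 9 genes (edgeR quasi-likelihood test with neuron as a block, Benjamini-Hochberg adjustment over 10880 genes, adjusted p at most 0.05). Of all genes, 6.53% were called, 0.827% as dendrite-high and 5.71% as soma-high. At an unadjusted p under 0.05, 3287 of all genes (30.2%) passed and again 0 of the 9. The dendrite over soma difference of Actb was -0.62 (SE 0.44, adjusted p = 0.315) on the log2 scale, and that of Actg1 was -0.47 (SE 0.70, adjusted p = 0.646). Tmsb4x had 0.70 (SE 0.36, adjusted p = 0.175) and Tmsb10 0.76 (SE 0.85, adjusted p = 0.530). The log2 differences were -0.24 for Cfl1, -0.65 for Cfl2, -0.40 for Dstn, 0.032 for Pfn1 and -0.21 for Pfn2, with SE between 0.45 and 0.93. Single neurons moved these values: with 1 neuron left out Actb ranged from -0.70 to -0.27 (without neuron 16), Actg1 from -0.59 to -0.062 (without neuron 13) and Cfl2 from -0.82 to -0.13 (without neuron 12), while Tmsb4x ranged from 0.65 to 1.03 and Tmsb10 from 0.65 to 1.13.

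These differences are relative to the other RNAs in a library, and the reference matters. The median of the 9 genes was -0.24 and that of all 10880 genes -1.49, and each of the 9 lay above the latter, although only 3 of 9 lay above the median gene of the fit without a filter and 5 of 9 in the fit without neuron as a block. The median gene had few reads in dendrites, however. Among the 359 genes with at least 10 reads in every library, which are genes well filled in dendrites by that choice, the median was 0.51 and 68.8% lay above 0. Of these genes, 11.4% lay lower than Actb, 20.1% lower than Cfl1 and 55.2% lower than Tmsb4x. Among these steadily detected RNAs, Actb and Cfl1 thus lay toward the soma side and Tmsb4x near the middle.

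Leaving aside scaling to spike-ins, Actb and Tmsb4x were the only ones of the 9 to cross the threshold under any alternative. DESeq2 with the same pairing put Actb lower in dendrites, at -0.87 (adjusted p = 0.0263), while 46.2% of all genes were then called lower. Over the alternatives other than leaving out a neuron, Actb's adjusted p ranged from 0.00319, which came from spike-in scaling, to 0.912. Its difference was below 0 under each of these except rescaling of dendrites to the median gene, which gave 0.91. Tmsb4x was called higher with exon counts (1.14, adjusted p = 0.0384, with 1.00% of genes called higher), with a filter of 10 reads in 16 libraries (1.04, adjusted p = 0.0442, 1.24% called higher), with equal reads in each pair (1.13, adjusted p = 0.0435, 1.22% called higher) and after rescaling to the median gene (2.24, adjusted p = 2.66e-06, 5.42% called higher). Over its alternatives the adjusted p ranged up to 0.919. The ERCC spike-in gave the opposite sign for Tmsb4x. Scaled to spike-in reads in the 14 neurons that had them, each of the 9 genes lay lower in dendrites, and 6 were called lower. Among those called were Actb at -3.06, Pfn2 at -2.44 and Tmsb4x at -1.65, with 64.4% of 9513 genes called lower and a median gene at -4.15.

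**Figure D2:**
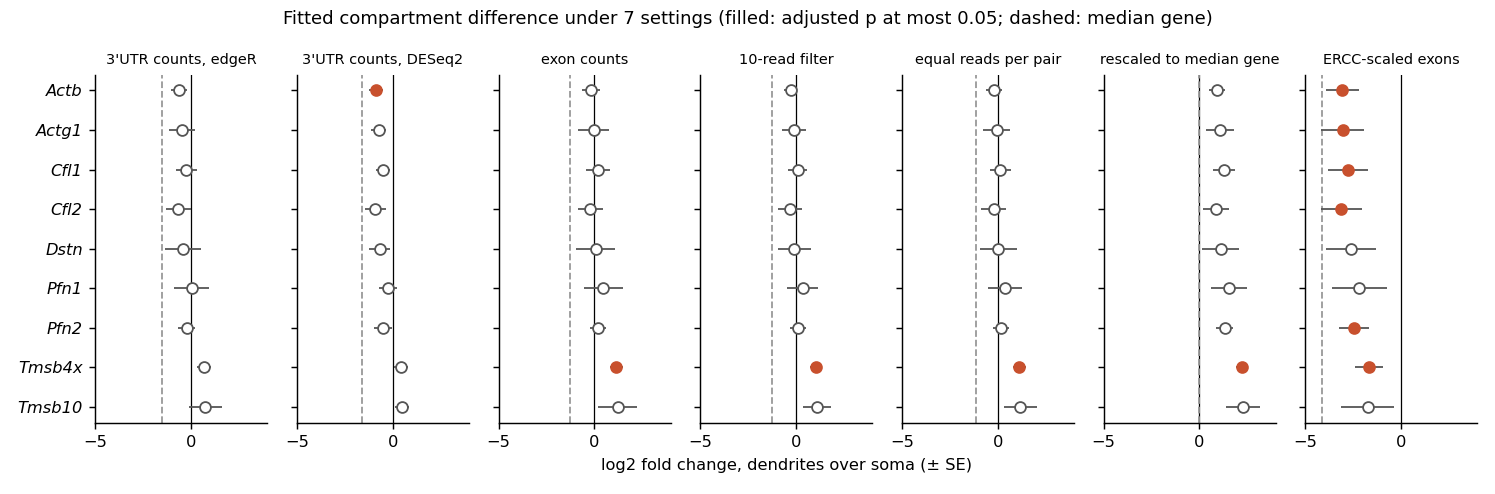
Fitted log2 difference of dendrites over soma for the 9 genes, with its SE, under 7 settings, where filled points have an adjusted p of at most 0.05 and the dashed line is the median of all genes. All 9 genes lie to the right of the dashed line in each setting, the 2 beta-thymosins farthest in all of them, and the sign of a gene depends on the scaling.

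A ratio of 2 genes within a library does not depend on scaling, so the ratios were compared directly. This was chosen after seeing the levels. All 36 pairs were computed, with 0.5 added to each count, and the mean paired difference was tested by exact permutation of its signs (two-sided, 16 neurons, smallest possible p 3.05e-05). Of the 15 pairs with a beta-thymosin, 11 had an unadjusted p under 0.05, and of the 21 pairs without one 0 did (lowest p = 0.249). In the same test of ratios to Actb over 7108 genes, 6.63% had an unadjusted p under 0.05 with a higher ratio in dendrites. Among the 358 genes with at least 10 reads in every library, 63.1% did, so such a shift was common among well-detected genes. The pairs share genes, the split by beta-thymosin was made after seeing the levels, and these p-values are unadjusted. Only the ratios to the actins were adjusted over all genes.

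Reads of Tmsb4x per read of Actb rose in dendrites. The log2 ratio was 1.18 at the lowest, 2.42 at the median and 4.06 at the highest in dendrites, and -0.51, 0.98 and 3.53 in somas. It was higher in the dendrites of 14 of 16 neurons, by 1.30 ± 1.27 (SD, n = 16) or 2.47-fold (exact sign-flip permutation test, p = 0.00122, adjusted p = 0.0230 over all 7108 genes tested against Actb in the same way). Tmsb10 per Actb had a log2 ratio of -6.72, -4.34 and -1.69 in dendrites and -8.78, -5.19 and -3.92 in somas. It was higher in the dendrites of 13 of 16 neurons, by 1.40 ± 1.14 (SD, n = 16) or 2.63-fold (exact test, p = 0.000519, adjusted p = 0.0142). Among the 7108 genes, 4.33% were called with a higher ratio to Actb in dendrites and 5.37% with a higher one in somas. Without neuron 15, whose dendrites had the most Tmsb4x, the difference was 1.14 for Tmsb4x (exact test, adjusted p = 0.0394) and 1.36 for Tmsb10 (exact test, adjusted p = 0.0249).

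Against Actg1 the picture was close to that for Actb. Tmsb10 rose by 1.24 ± 0.96 (SD, n = 16) on the log2 scale or 2.37-fold with 14 of 16 neurons in that direction (exact test, p = 0.000366, adjusted p = 0.0148, with 3.42% of genes called higher in dendrites and 3.67% in somas). Tmsb4x had a difference of 1.15 ± 1.27 (SD, n = 16) in the same direction in 14 of 16 neurons (exact test, p = 0.00357), and its adjusted p of 0.0502 just missed the threshold. It passed without neuron 2 (exact test, adjusted p = 0.0153, 3.58% of genes called) and without neuron 9 (exact test, adjusted p = 0.0445, 3.35% of genes called). The profilins and cofilins did not pass against either actin, with mean differences from -0.49 (Cfl2) to 0.52 (Pfn1) per Actb.

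Most steadily detected genes shifted in the same way. Among the 358 other genes with at least 10 reads in every library, 60.9% had a called rise per Actb in dendrites and 1.68% a called rise in somas, the median difference was 1.12, and 45.5% had a difference at least as large as that of Tmsb4x. Per Actg1, 53.2% of 359 such genes were called higher in dendrites and 1.11% in somas. Markers of microglia, which are rich in Tmsb4x, were also looked at beside it. All 6 listed (Cx3cr1, Csf1r, C1qa, C1qb, C1qc and Aif1) had reads somewhere, summed to 0 to 385 CPM in dendrites (median 7.97) and 0 to 182 CPM in somas (median 0.360), and were all at 0 in 3 dendrites and 3 somas. The 5 astrocyte markers summed to 0 to 663 CPM in dendrites (median 33.1) and 0 to 146 CPM in somas (median 13.1). The part of such RNA in the ratio was not tested.

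**Figure D3:**
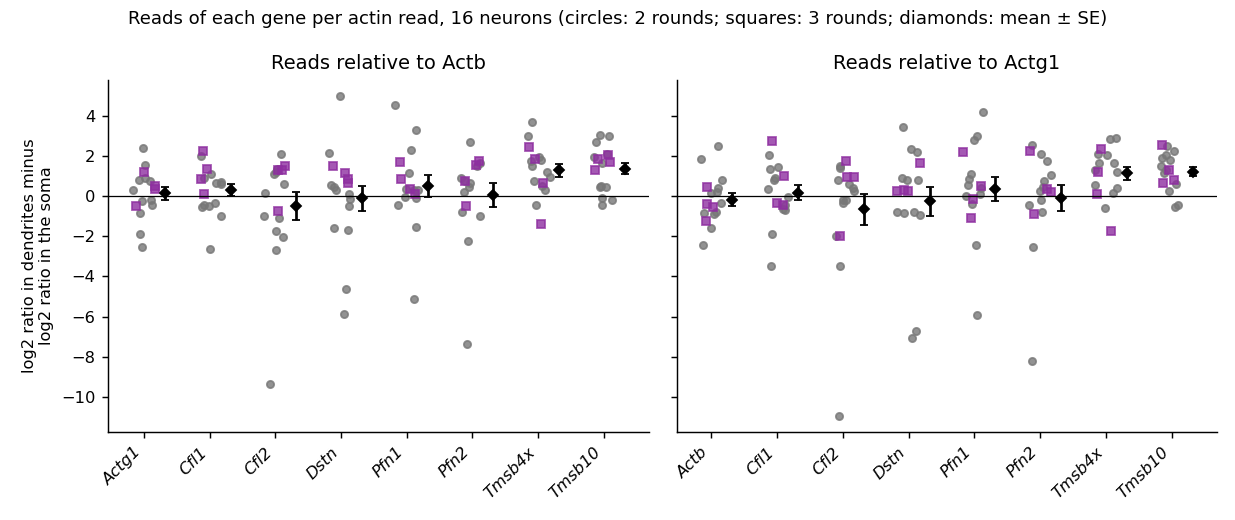
Log2 ratio of each gene's reads to Actb (left) or Actg1 (right) in dendrites minus that in the soma, with a point per neuron (squares for 3 rounds) and diamonds for the mean with its SE over 16 neurons. The means of Tmsb4x and Tmsb10 lie at 1.15 to 1.40, clear of 0, and the means of the cofilins and profilins lie between -0.64 and 0.52, with a few neurons far below.

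None of the 4 shares within a family differed between compartments beyond the spread between neurons. Actb made up 83.6% ± 11.0 (SD, n = 16) of actin reads in dendrites and 85.1% ± 8.88 in somas, a difference of -1.48 ± 12.5 percentage points (exact sign-flip permutation test, p = 0.649, adjusted p = 0.866 over the 4 shares). Cfl1 took 46.8% ± 15.3 of the ADF/cofilin reads in dendrites and 42.1% ± 10.5 in somas (exact test, p = 0.282, adjusted p = 0.563). Pfn1 took 3.46% ± 3.07 of profilin reads in dendrites and 2.17% ± 1.36 in somas over the 15 neurons with at least 10 profilin reads in both (exact test, p = 0.129, adjusted p = 0.515). Tmsb4x took 98.6% ± 1.20 and 98.6% ± 0.937 of beta-thymosin reads (exact test, p = 0.942).

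Some of the shares differed with the number of amplification rounds. In somas Actb made up 95.2% ± 3.40 (SD, n = 4) of actin reads after 3 rounds and 81.8% ± 7.41 (SD, n = 12) after 2, and the groups did not overlap (exact permutation test, p = 0.00110, adjusted p = 0.00440 over 8 tests). Dendrites gave 94.6% ± 3.28 (SD, n = 4) and 80.0% ± 10.2 (SD, n = 12), with overlap (exact permutation test, p = 0.00659, adjusted p = 0.0132). The share of Tmsb4x among beta-thymosin reads was 99.8% ± 0.110 (SD, n = 4) and 98.2% ± 0.701 (SD, n = 12) in somas without overlap (exact permutation test, p = 0.00110, adjusted p = 0.00440), and 99.7% ± 0.163 and 98.2% ± 1.17 in dendrites (exact permutation test, p = 0.00220, adjusted p = 0.00586). In neurons 1 to 4, the 3-round cells, it rested on 11, 3, 4 and 39 reads of Tmsb10 in somas and 6, 5, 4 and 20 in dendrites. Cfl1 was lower after 3 rounds in somas, at 31.7% ± 9.93 (SD, n = 4) against 45.6% ± 8.51 (SD, n = 12) of ADF/cofilin reads (exact permutation test, p = 0.0198, adjusted p = 0.0316). In dendrites Cfl1 did not pass, at 38.1% ± 15.6 and 49.7% ± 14.7 (exact permutation test, adjusted p = 0.205). Nor did Pfn1 pass, at 1.24% and 2.43% of profilin reads in somas (exact permutation test, adjusted p = 0.0615) and 1.18% and 4.28% in dendrites (adjusted p = 0.0687). The more abundant paralog of the actins and of the thymosins thus took a larger share after 3 rounds in both compartments. Rounds were fixed for each neuron and were compared after seeing the data, and rounds and other differences between these cells, such as their culture, cannot be told apart.

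**Figure D4:**
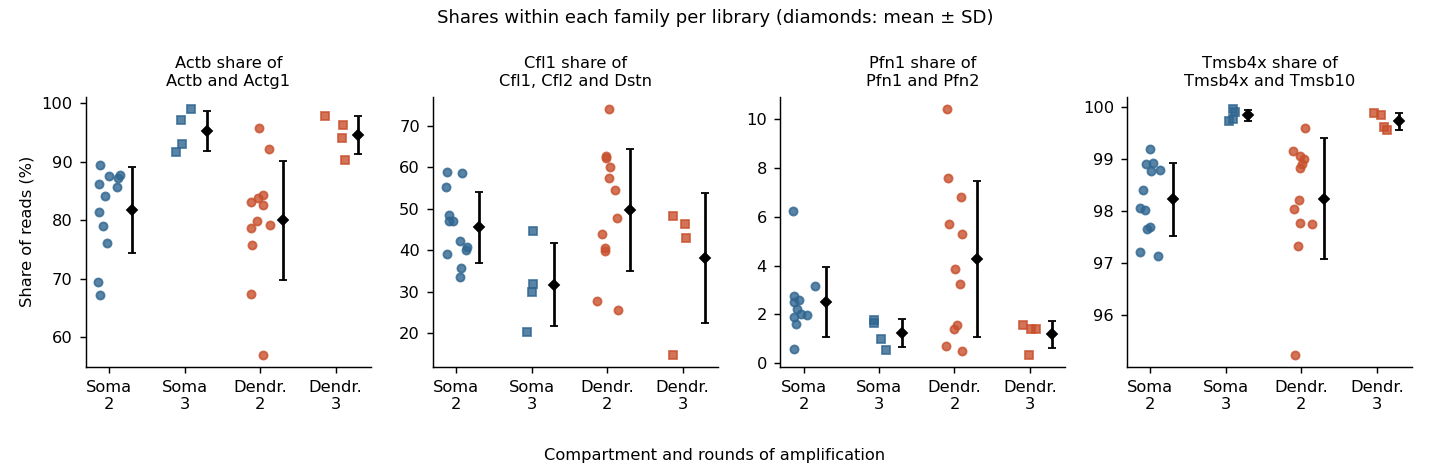
Share of the first-named gene among its family's reads (percent) in each library, split by compartment and by rounds of amplification, with diamonds for the mean and its SD. For the actins and the thymosins the 3-round libraries sit high in both compartments, and soma and dendrites of the same number of rounds overlap.

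The same contrast of rounds by gene called none of the 9 (edgeR, background of 0.0104% of 9627 genes called in dendrites and 0.809% of 12119 in somas). In somas the 3 over 2 rounds log2 difference was -2.24 (SE 0.60, adjusted p = 0.0873) for Actg1, -1.26 (SE 0.34, adjusted p = 0.0862) for Cfl1 and 1.16 (SE 0.29, adjusted p = 0.0683) for Pfn2. Actb had 0.24 there (SE 0.27). The compartment difference itself was not seen to depend on the rounds: the interaction called 0 of the 9 and 0 of 10880 genes in edgeR (288, or 2.65%, at an unadjusted p under 0.05), and 0 of the 9 and 44 of all genes in DESeq2. The ratio of Tmsb4x to Actb was higher in dendrites by 1.44 ± 1.15 (SD, n = 12) after 2 rounds, with 11 of 12 neurons in that direction (exact test, p = 0.00146). It was higher by 0.90 after 3 rounds, in 3 of 4 neurons, where the smallest possible p is 0.125.

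Alternative 3′ ends were measured for Actb, Actg1, Pfn1 and Pfn2, and the other 5 genes had a single counted end. The share of reads on the less used of the top 2 ends was compared in each neuron (exact signed-rank test, two-sided, over 3522 genes). It called 0 genes after adjustment, and 8.40% of all genes had an unadjusted p under 0.1. For Actb the minor end took 3.50% of reads in dendrites and 4.79% in somas, lower in dendrites in 11 of 16 neurons (exact test, p = 0.117). For Actg1 the minor end took 0.266% and 0.367%, lower in dendrites in 9 of 15 neurons and higher in 1 (exact test, p = 0.0840). The dendrite value rested on neuron 9, with 61 of 1530 reads on the minor end (3.99%), and the other dendrites had no read there. Without neuron 9 the difference was -0.387 percentage points, lower in dendrites in 9 of 14 neurons and higher in 0 (exact test, p = 0.00391, adjusted p = 0.853). Without neuron 14, whose soma had 27 of 1016 reads on the minor end, the sign turned, to 0.0810 points (exact test, p = 0.129). Pfn1 had a difference of 0.697 points (exact test, p = 0.922), which was 0.0822 without neuron 2. Pfn2 had 0.0582 points (exact test, p = 0.164), which turned to -0.0696 without neuron 7 (exact test, p = 0.0156, adjusted p = 1). Actg1 was thus counted almost wholly on 1 end in each compartment. For Actb the minor end reached 10.3% of reads, in the dendrites of neuron 14. Over the 12 neurons amplified in 2 rounds it took 4.62% in dendrites and 6.28% in somas.

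The compartment difference of Actb varied little from neuron to neuron. Its SD over neurons, for the log2 difference, was 0.66, the 6th lowest of the 359 genes with at least 10 reads in every library, whose median SD was 1.18. Cfl1 had 1.09 and Tmsb4x 1.03, and the other 6 genes were not in that set. Across the 16 neurons genes whose compartment difference was among the most like that of Actb were Ywhaz (a 14-3-3 protein, Spearman correlation 0.69), Scoc (0.69), Gng2 (a G-protein gamma subunit, 0.64) and Idh3a (a subunit of isocitrate dehydrogenase, 0.62). Cfl1 ranked 107 of 358 at 0.015 and Tmsb4x 137 at -0.065. Among the 36 pairs of the 9 genes the correlation ran from -0.29 (Actb and Tmsb10) to 0.69 (Cfl1 and Cfl2), with 32 above 0. These points share their libraries and their depth, and the correlations are descriptions.

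The wider actin machinery was looked at with 106 genes in fixed lists, of which 88 passed the filter. Of these, 1 was called lower in dendrites (1.14%, against 5.71% of all genes) and 0 higher, and 17 of the 88 had an unadjusted p under 0.05, each lower in dendrites, beside 30.2% of all genes in either direction. Their median log2 difference was -1.14. The gene called was Srf, the transcription factor that is turned on when free actin monomer runs down, at -4.39 (SE 1.35, adjusted p = 0.0413). It had reads in 7 of 16 dendrites, with a median of 0 CPM, and in 13 of 16 somas, with a median of 7.20 CPM, so its fold rests on few reads. Scai, which represses the Srf coactivators, had -2.96 (SE 1.36, adjusted p = 0.136).

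Nucleators, Arp2/3 and capping proteins had the lowest medians after the Srf list. The 11 nucleators and elongation factors tested had a median of -1.90, with the formin Fmnl2 at -4.52 and Vasp at -3.98 (adjusted p = 0.0673 and 0.0708), with reads in 7 and 6 of the 16 dendrites. The 10 genes listed for subunits of Arp2/3, which starts branches, had a median of -1.43, beside -1.49 for all genes. Arpc2 had a median of 398 CPM in somas and 173 CPM in dendrites, at -1.56 (adjusted p = 0.103), and Actr2 was higher in the soma in 15 of 16 neurons, at -1.63 (adjusted p = 0.123). Another subunit, Arpc1b, named after its values were seen, went the other way at 1.89 (SE 0.99, adjusted p = 0.186), with dendrites higher in 13 of 16 neurons and medians of 1.58 CPM in dendrites and 0.391 CPM in somas. The 10 capping proteins had a median of -1.30, with Capza2 at -2.38 (adjusted p = 0.0619) and Eps8 at -2.91 (adjusted p = 0.0701). None of these passed the test.

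The lists that follow lay closer to 0, again with no call. The 19 bundling and side-binding proteins had a median of -0.91, with the bundler Fscn1 at -2.02 (adjusted p = 0.110) and the spine protein drebrin (Dbn1) at -2.06 (adjusted p = 0.221). The 6 regulators of cofilin had -0.79, with its phosphatases Ssh1 at -3.63 (adjusted p = 0.133) and Ssh2 at -1.14 (adjusted p = 0.396). The 11 other turnover factors had -0.76, with Twf1 at -2.12 and Cap2 at -2.40, and the 7 non-muscle myosins had -0.67, with Myl12a at -2.80 and Myh10 at -1.39. The 4 muscle actins listed did not pass the filter.

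**Figure D5:**
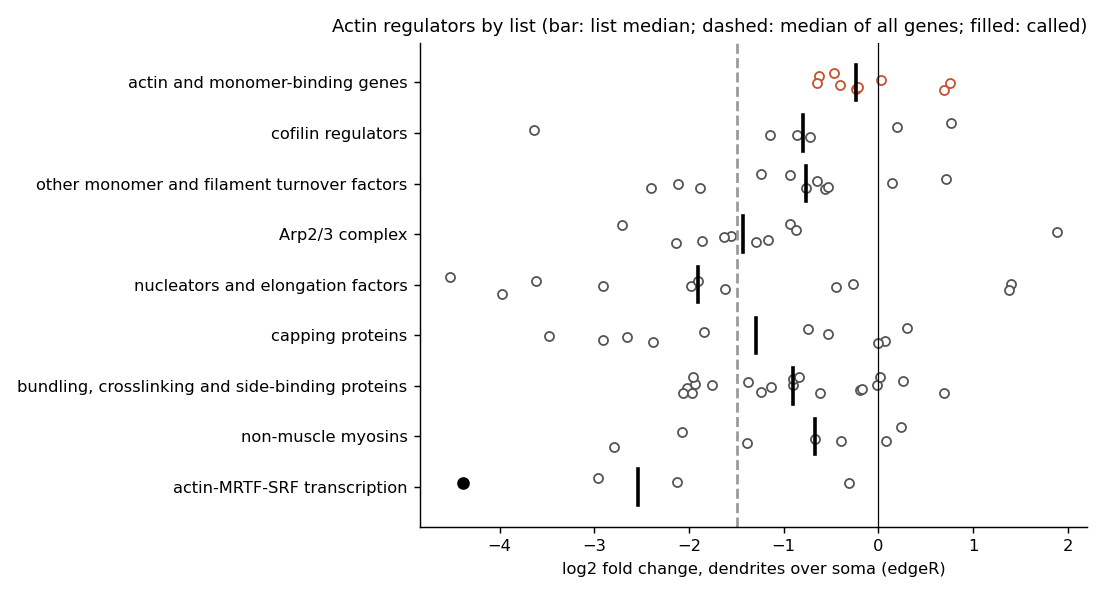
Log2 difference of dendrites over soma for the 9 genes and for the other actin genes by list, with a point per gene, bars for list medians and a dashed line for the median of all genes at -1.49. The 9 genes span -0.65 to 0.76 around a median of -0.24, and the only filled point, the 1 gene called, is Srf.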

How the data were processed

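Per the labels and the study's methods, the authors aligned reads to mm10 with STAR (2.4.0 in the submitters' processing notes) and deposited read counts of uniquely mapped, strand-matched reads from VERSE: on the union of each gene's 3′UTRs, on the last 500 bases of each 3′ end, and on exons with ERCC spike-ins. The deposited counts are not normalized and carry no molecular identifiers, so tests use the spread between neurons. From these, genes counted at least 1 time in 16 or more libraries were tested with edgeR 4.0.16 (TMM, robust quasi-likelihood test, neuron as a block) in R 4.3.3, with DESeq2 1.42.0 as an alternative. Other values came from Python 3.11 (SciPy 1.17.1, NumPy 2.4.6, pandas 2.3.3), and copies from BLAST 2.17.0 on GENCODE transcripts of GRCm38. Both libraries of a neuron came from the same cell, which pairs them, and the labels do not tie cells to cultures or animals, so p-values measure the spread between these cells. Their deviations from the compartment means correlated at 0.0887 (mean, n = 16), against -0.00559 for different neurons, and 0 libraries were identical. The methods were tested on simulated data. The members, gene lists and tests were chosen with earlier results of these data known. All 9 members are named, and of the other actin lists every gene called and, in each, the 2 with the smallest p, except that 1 list and 1 gene like Actb are not reported here.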

Additional observations from a re-analysis of the deposited data

Results flagged for a closer look

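The lowest and highest values of the 4 neurons amplified in 3 rounds were set against the other 3 for 26 combinations of measure and compartment. Chance alone puts about 1 in 20 such groups apart, and 2 stood apart. Cfl1 made up 14.9% of the ADF/cofilin reads in the dendrites of neuron 4, against 42.9% to 48.2% in the dendrites of the other 3 neurons. Pfn1 made up 0.347% of the profilin reads in the dendrites of neuron 1, against 1.39% to 1.57% in the others. The 4 libraries of neurons 1 and 2, labelled as without ERCC spike-in, held between 59 and 80 ERCC reads each. These libraries were not used for spike-in scaling.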

How the results depend on the processing

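The number of the 9 genes called, 0 in edgeR, was 1 with DESeq2, with a filter of 10 reads in 16 libraries, with exon counts, with equal reads in each pair and after rescaling of dendrites to the median gene, and 6 with ERCC scaling. It was 0 whichever neuron was left out, and 0 without the neuron as a block. Dropping this pairing changed the calls over all genes, from 90 higher in dendrites and 621 higher in somas to 157 and 77, and moved the median gene from -1.49 to -0.22. Without the block the Actb difference was -0.57 and that of Tmsb4x 0.55. The ratios were not run without the pairing.

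The sign of several log2 differences turned. After rescaling to the median gene they were 0.91 for Actb, 1.07 for Actg1, 1.30 for Cfl1, 0.89 for Cfl2, 1.13 for Dstn and 1.33 for Pfn2. With exon counts they were 0.17 for Cfl1, 0.070 for Dstn and 0.19 for Pfn2, with equal reads 0.15, 0.042 and 0.19, and with the 10-read filter 0.089 for Cfl1 and 0.11 for Pfn2. In the 3-round neurons they were 0.56 for Cfl1, 0.29 for Cfl2, 0.43 for Dstn and 0.33 for Pfn2. Pfn1 had -0.23 with DESeq2, -0.24 with its size factors in edgeR, -0.037 without a filter and -2.17 with ERCC scaling, which also gave -1.65 for Tmsb4x and -1.75 for Tmsb10. With single neurons left out, Cfl1 ranged from -0.34 to 0.18, Dstn from -0.53 to 0.077, Pfn1 from -0.021 to 0.51 and Pfn2 from -0.30 to 0.26. The cause was not tested.

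For the shares, the dendrite minus soma difference of Pfn1 was -0.064 percentage points after 3 rounds and that of Tmsb4x 0.011 after 2. With single neurons left out, the difference ranged from -3.25 to 0.467 points for Actb and from -0.154 to 0.139 for Tmsb4x. It ranged from 2.73 to 6.51 points for Cfl1 and from 0.813 to 1.55 for Pfn1. The ratio of Tmsb4x to Actb was higher in dendrites by 0.90 after 3 rounds and no longer past the threshold, which 4 neurons cannot reach. After 2 rounds Tmsb10 differed by 1.28 per Actb and 1.21 per Actg1, past the threshold in neither. Tmsb4x per Actg1 passed at 1.15 when only genes with at least 10 reads in every library were tested, and ranged from 1.03 to 1.34 with single neurons left out. Depth limits Dstn, Pfn1 and Tmsb10 most, which had at least 10 reads in 13, 14 and 13 of 16 dendrites.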
